A study of Mus musculus with 19 samples.

Results

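The 9 Notch pathway genes Notch1, Notch2, Jag1, Jag2, Hes1, Hey1, Hey2, Heyl and Dtx4 were followed in RNA of whole mouse ovary, measured at 2 months of age on 19 Affymetrix arrays. The members were chosen by name, and Dtx4 was also selected on its lower signal in both DKO and Ihh KO 1 to 3, so its values in those groups are a description without a test. Of 45101 probe sets, 17 were annotated to a single one of these genes. All 9 genes passed the filter on low signals and were among the 12379 genes tested, out of 18193 genes with a probe set of their own. The groups were DKO, 3 arrays labelled Ihh_Dhh_dKO, from ovaries lacking both Dhh and Ihh, then Dhh KO (4 arrays, Dhh_KO) and Ihh KO (4 arrays, Ihh_KO), from ovaries lacking one of the genes, and 8 controls labelled Ihh_Dhh_dhet, taken here as heterozygous for both. The labels call the deletion specific to the ovary and do not name the Cre line, the strain or the second gene's alleles in the single knockouts. Nothing in them says that the arrays of a group came from separate animals, so p-values measure the spread between these samples, and the number of arrays limits the precision.

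Notch receptors are membrane proteins that are cut after a Jagged or Delta-like ligand on a neighbouring cell binds them. The released intracellular part enters the nucleus, joins the DNA-binding protein RBPJ and Mastermind coactivators, and switches on targets such as the Hes and Hey genes, which encode basic helix-loop-helix repressors. In mouse ovary, Jag1 of oocytes signals to Notch2 on granulosa cells while follicles form, and Notch genes also act in blood vessels. Dhh and Ihh encode secreted Hedgehog ligands of granulosa cells that act on the surrounding theca and stroma.

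Arrays were split into a pair of hybridization sets that the labels do not mention, taken from earlier results of these data. The 3'/5' ratio of the BioC spike-in control parts the arrays in the same way. It was 0.987 to 1.06 on DKO and control 1 to 4, and 0.685 to 0.781 on the single knockouts and control 5 to 8. Each mutant was compared with the controls of its set. Each control array of one set deviated from its set mean in the same genes as one array of the other set, control 1 like control 5, 2 like 6, 3 like 7 and 4 like 8 (r over genes 0.538 to 0.771), so the control groups are not independent; the tests between sets take the matching into account only where this is stated. Dhh read 3.85 to 14.2 on DKO and 5.14 to 25.4 on Dhh KO, against 606 to 1371 on the controls. The array labelled Ihh KO 4 read 2.96 for Dhh, where Ihh KO 1 to 3 read 527 to 709. This goes against its label, and the array was kept apart. The signal of Ihh was 36.3 to 52.7 on DKO and 12.5 to 43.5 on Ihh KO 1 to 3. The controls read 139 to 425 and Dhh KO 108 to 168, while the fourth Ihh KO array gave 108. Granulosa markers (9 of 10 listed had a probe set) and all 11 oocyte markers gave signal, with summed levels of 37151 to 55425 and 7683 to 24855 over the arrays, as the organ label says. Gapdh 3'/5' ratios, a measure of RNA integrity, were 1.68 to 1.78 on DKO against 1.69 to 1.80 on control 1 to 4, and 2.08 to 2.79 on Dhh KO and 1.90 to 2.37 on Ihh KO 1 to 3 against 1.89 to 2.01 on control 5 to 8.

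Dtx4 was the member with the lowest signals relative to controls in DKO and in Ihh KO 1 to 3. It averaged 445 ± 23.6 on DKO against 930.0 ± 331 on control 1 to 4, and 443 ± 26.0 on Ihh KO 1 to 3 against 925 ± 299 on control 5 to 8 (MAS5 signal, SD, n = 3 mutant and 4 control arrays each). Of the other 8 members, 0 were called in DKO, 0 in Ihh KO 1 to 3 and 0 in Dhh KO (limma, Benjamini-Hochberg adjusted p over 12379 genes, threshold 0.05). Over all genes, 3.13% were called in DKO (388 genes), 0.388% in Ihh KO 1 to 3 (48 genes) and 0.00808% in Dhh KO (Dhh alone). At an unadjusted p under 0.05 the counts of these 8 members were 0 in DKO, 2 in Ihh KO 1 to 3 (Jag2 and Heyl) and 1 in Dhh KO (Notch1), beside 2018, 1980 and 1273 over all genes, and no other tool was run. The plot of members by array shows the signals behind these counts.

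**Figure D1:**
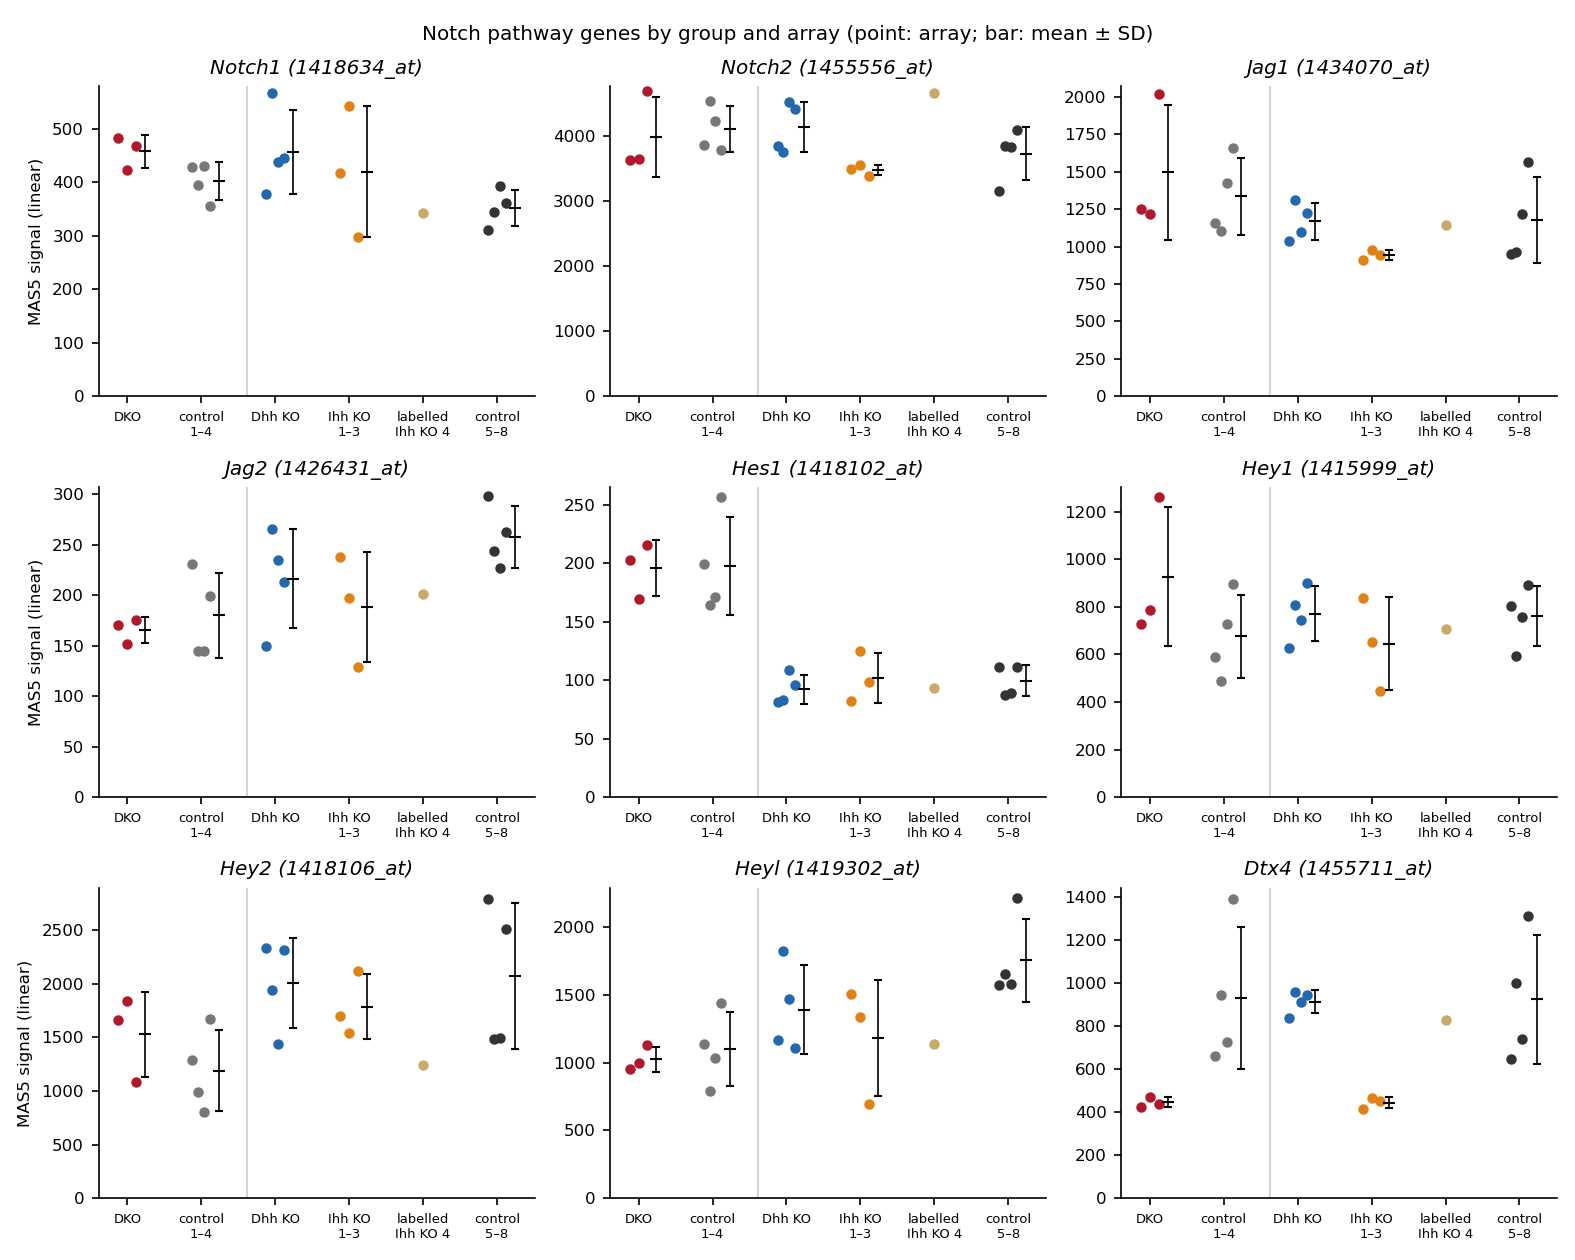
Linear MAS5 signal (y axis, arbitrary units) of the most abundant probe set of each of the 9 Notch pathway genes by group (x axis). Each point is an array, bars give the mean ± SD, and the vertical line parts the hybridization sets; Dtx4 lies under all control arrays of the set on DKO (426 to 472) and Ihh KO 1 to 3 (414 to 464), while Hes1 differs between the sets.

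Both receptors overlapped their controls in DKO, Ihh KO 1 to 3 and Dhh KO by their most abundant probe sets. Notch1, a receptor of many tissues including endothelium, read 423 to 482 on DKO against 357 to 431 on control 1 to 4. On the second set it read 379 to 567 on Dhh KO and 298 to 543 on Ihh KO 1 to 3 against 311 to 393 on control 5 to 8. These ranges overlap, and the log2 differences were 0.18 in DKO (SE 0.17, limma adjusted p = 0.655), 0.36 in Dhh KO (SE 0.16, adjusted p = 0.460) and 0.21 in Ihh KO 1 to 3 (SE 0.17, adjusted p = 0.574). The second probe set of Notch1 read 191 to 220.4 on DKO against 119.8 to 197 on control 1 to 4. It stood at -0.17 in Dhh KO, where the first stood at 0.36, so the probe sets gave opposite signs there.

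Notch2, the main receptor of granulosa cells, read 3634, 3648 and 4698 on DKO against 3863, 4548, 4238 and 3797 on control 1 to 4. DKO 3 was above all 4 controls, and DKO 1 and DKO 2 were below them. On Ihh KO 1 to 3 it read 3499.7, 3553 and 3395, against 3156, 3852, 3842 and 4095 on control 5 to 8, and on Dhh KO it read 3761 to 4528. The log2 differences were -0.05 in DKO (SE 0.11, limma adjusted p = 0.878), -0.09 in Ihh KO 1 to 3 (adjusted p = 0.701) and 0.15 in Dhh KO (adjusted p = 0.630). Their 95% intervals, -0.28 to 0.18, -0.32 to 0.13 and -0.06 to 0.36, were the narrowest of the 9 genes. The second Notch2 probe set read 469.7, 425 and 359.9 on Ihh KO 1 to 3, against 544, 717, 623 and 536 on control 5 to 8. All 3 mutant arrays lay under the controls there, with a log2 difference of -0.52 (SE 0.19) that was not called when every probe set was tested (adjusted p = 0.201).

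The ligand genes showed no called difference. Jag1, the Jagged ligand made by oocytes and vessel cells, read 1254, 1218 and 2016 on DKO against 1159, 1104, 1423 and 1661 on control 1 to 4. DKO 3 was the highest of these arrays, the others lay within the controls, and the log2 difference was 0.14 (SE 0.19, limma adjusted p = 0.781). On Ihh KO 1 to 3 Jag1 read 909, 980.2 and 945, against 951, 967, 1219.6 and 1565 on control 5 to 8. The mutant arrays lay at the low end of the controls and overlapped control 5 and control 6, at a log2 difference of -0.28 (SE 0.19, adjusted p = 0.491). A second Jag1 probe set read 506, 488 and 428 on Ihh KO 1 to 3, against 721, 576, 657 and 785 on control 5 to 8. These groups did not overlap, and the log2 difference of -0.52 (SE 0.16) was not called with every probe set tested (adjusted p = 0.142). In Dhh KO Jag1 stood at 0.02 (adjusted p = 0.985).

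Jag2, the other Jagged ligand, had a low signal. It read 152 to 175 on DKO against 145 to 231 on control 1 to 4, a log2 difference of -0.09 (SE 0.22, limma adjusted p = 0.892). On Ihh KO 1 to 3 it read 238, 198 and 129.5, against 299, 244, 227 and 262 on control 5 to 8. Ihh KO 1 lay within the controls and the other mutant arrays under them, at -0.48 (SE 0.22, adjusted p = 0.310), while Dhh KO stood at -0.27 (adjusted p = 0.696). The weaker Jag2 probe set read 67.7 to 88.5 on Ihh KO 1 to 3 against 23.3 to 131 on control 5 to 8, with the opposite sign (0.54), and the mean of both probe sets stood at 0.0300. The direction of Jag2 in Ihh KO 1 to 3 therefore depended on the probe set.

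The target genes of the Hes and Hey families did not pass the test in any mutant. Hes1, a repressor induced by Notch in many tissues, read 203, 169 and 216 on DKO against 199, 165, 171 and 257 on control 1 to 4. These groups overlapped fully, with a log2 difference of -0.000939 (SE 0.20, limma adjusted p = 0.998) and a 95% interval of -0.41 to 0.41. Ihh KO 1 to 3 read 82.6, 125 and 98.4 and Dhh KO 81.3, 82.9, 109 and 96.0, against 111, 87.6, 89.0 and 111 on control 5 to 8. They too overlapped, at 0.02 (adjusted p = 0.973) and -0.11 (adjusted p = 0.879).

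Hey1 and Hey2, which act in vessels and heart, had higher means on DKO than on its controls, but neither passed the test. Hey1 read 729, 788 and 1263 on DKO against 591, 490.3, 729 and 894 on control 1 to 4. DKO 3 was above all controls and the other DKO arrays lay within them, at a log2 difference of 0.44 (SE 0.24, limma adjusted p = 0.381). Hey1 stood at -0.26 in Ihh KO 1 to 3 (adjusted p = 0.612) and at 0.02 in Dhh KO (adjusted p = 0.984). Hey2 read 1664, 1835 and 1080.4 on DKO against 1292, 993, 799.7 and 1674 on control 1 to 4. DKO 2 was the highest and the groups overlapped, at 0.38 (SE 0.27, adjusted p = 0.543). Against all 8 controls, with no term for the set, the difference stood at -0.0174. That setting takes in the gap between the sets, since Hey2 was 0.79 higher on control 5 to 8 than on control 1 to 4. Hey2 stood at -0.16 in Ihh KO 1 to 3 (adjusted p = 0.806) and at -0.01 in Dhh KO (adjusted p = 0.994).

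The 250 bases before the gene start were held for 5 of the 9 members (Notch1, Notch2, Jag1, Jag2 and Hey2) in RefSeq's promoter table, build GRCm38.p6. The RBPJ core TGGGAA, searched on both strands, was found in Hey2 alone among them, against 21.5% of 27025 promoters of this length. The Hey2 window (chr10:30842784-30843033, minus strand) is shown because it holds the only match to that Notch motif, with capitals marking the letters, which read TTCCCA on this strand:

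Hey2: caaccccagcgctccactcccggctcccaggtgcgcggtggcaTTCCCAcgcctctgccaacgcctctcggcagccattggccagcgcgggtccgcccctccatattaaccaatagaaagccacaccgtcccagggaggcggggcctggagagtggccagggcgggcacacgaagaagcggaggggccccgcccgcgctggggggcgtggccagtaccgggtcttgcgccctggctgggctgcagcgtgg

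This match lies 207 to 202 bases before the start. The GLI consensus GACCACCCA, a motif of the Hedgehog-regulated GLI factors, was in 0 of the 5 windows and in 0.211% of all promoters. The E-box CANNTG was in Jag1 and Hey2, 2 of 5 windows, and in 66.0% of all promoters. A match in letters is a description of the window and says nothing of binding in these ovaries.

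Heyl, a Hey family gene known from vascular smooth muscle and pericytes, had its lowest difference in Ihh KO 1 to 3. It read 1508, 1333 and 697 on Ihh KO 1 to 3, against 1574, 1654, 1583 and 2211 on control 5 to 8. All 3 mutant arrays were under all 4 controls, with Ihh KO 3 far under the other mutant arrays. Ihh KO 3 also had the highest Gapdh 3'/5' ratio of these arrays (2.37) and the lowest median signal of its set (105.7). The part of RNA quality in its Heyl signal was not tested. The log2 difference was -0.63 (SE 0.24, limma adjusted p = 0.213), and it stood at -0.29 without Ihh KO 3. A second Heyl probe set read 573, 563 and 375 on Ihh KO 1 to 3, against 694, 613, 588 and 986 on control 5 to 8, and the third read 137, 113 and 47.9 against 125, 113, 119 and 181. The second did not overlap and the third did, at log2 differences of -0.50 each (adjusted p = 0.267 and 0.394 with every probe set tested). On DKO Heyl read 949.6, 999 and 1127, against 1137, 789, 1034 and 1441 on control 1 to 4, and the groups overlapped (-0.07, adjusted p = 0.925). Dhh KO, at 1163, 1820.0, 1467 and 1108, also overlapped its controls (-0.35, adjusted p = 0.619).

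The mural and smooth muscle markers, all 11 measured, summed to 14609 to 16751 on Ihh KO 1 to 3 against 14563 to 19151 on control 5 to 8. Of these 11 markers, 7 were lower there and 0 were called, and their part in the Heyl values was not tested. Cnn1 and Des had the lowest single-array signals among them, 14.4 and 12.1 over the 19 arrays. On DKO the 11 markers summed to 8918 to 15046 against 16850 to 22779 on control 1 to 4, with 10 of 11 lower and 2 called lower, while Heyl stood at -0.07. Endothelial markers (12 of 12 measured) summed to 5554 to 7225 on DKO against 7221 to 8650 on control 1 to 4, with 2 called lower. On Ihh KO 1 to 3 they summed to 8171 to 12556 and on Dhh KO to 8430 to 11732, against 7962 to 9265 on control 5 to 8, with all 12 higher and 0 called.

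Dtx4 encodes a Deltex family E3 ubiquitin ligase; Deltex proteins bind the intracellular part of Notch receptors. On DKO it read 426, 472 and 439, against 660.2, 942, 726 and 1392 on control 1 to 4. All DKO arrays lay under all controls, and control 4 was far above the others. On Ihh KO 1 to 3 it read 414, 464 and 452, against 645, 999.9, 740.4 and 1313 on control 5 to 8. Again no mutant array reached a control array, and control 8, the array matched to control 4, was the highest. The ratios of mean signals were 0.479 in DKO and 0.480 in Ihh KO 1 to 3, and the log2 differences were -0.99 and -0.996 (SE 0.23 each). Whole-ovary RNA cannot tell fewer cells of a type from less RNA per cell.

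The Dhh KO arrays were not used to choose Dtx4. Their baseline, control 5 to 8, was part of that choice, so the test here is not independent of it. Dtx4 did not differ detectably in Dhh KO. It read 837, 957, 911 and 946 on Dhh KO, against 645, 999.9, 740.4 and 1313 on control 5 to 8. All 4 mutant arrays lay within the range of the controls. The log2 difference was 0.03 (SE 0.21, 95% interval -0.41 to 0.48, limma adjusted p = 0.971), and it ran from -0.12 to 0.22 when an array was left out. The array labelled Ihh KO 4 read 829 for Dtx4, within the controls and far above Ihh KO 1 to 3. With that array counted in, Ihh KO stood at -0.77.

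The second Dtx4 probe set also lay under the controls in DKO and Ihh KO 1 to 3. It read 331, 413 and 313 on DKO, against 561, 822, 659.5 and 1222 on control 1 to 4, with no overlap. On Ihh KO 1 to 3 it read 293, 262 and 351, against 376, 637, 401 and 843 on control 5 to 8, again with no overlap, although the highest mutant array was close to the lowest control. The log2 differences of this probe set were -1.14 and -0.82 (SE 0.26 each). On Dhh KO it read 407, 502, 462 and 503, within the range of those controls (-0.19, SE 0.24, adjusted p = 0.811 with every probe set tested). Without control 4 the first probe set stood at -0.78 in DKO, and without control 8 at -0.81 in Ihh KO 1 to 3.

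Corpus luteum markers varied beside Dtx4. Of 5 listed, 3 had a probe set, with lowest signals over the arrays of 55.5 (Ptgfr), 44.0 (Akr1c18) and 308 (Sfrp4). They summed to 17589 to 26473 on Ihh KO 1 to 3 and 6692 to 14126 on Dhh KO, against 717 to 16754 on control 5 to 8. On DKO the sum was 1107 to 12101, against 419 to 20217 on control 1 to 4. The lowest sums, 419 on control 4 and 717 on control 8, fell on the arrays with the highest Dtx4. These 2 arrays are matched across the sets and not independent. The highest control sums, 20217 on control 2 and 16754 on control 6, also matched, came with Dtx4 of 942 and 999.9. Those signals were above control 1, 3, 5 and 7 (645 to 740.4). DKO 3, with a sum of 1107, read 439 for Dtx4. In DKO 4 of 6 theca and 2 of 6 stroma markers were also called lower and 4 of 5 tested oviduct, 2 of 7 surface epithelium and 2 of 3 tested mast cell markers called higher. The part of these cell types in the Dtx4 values was not tested.

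**Figure D2:**
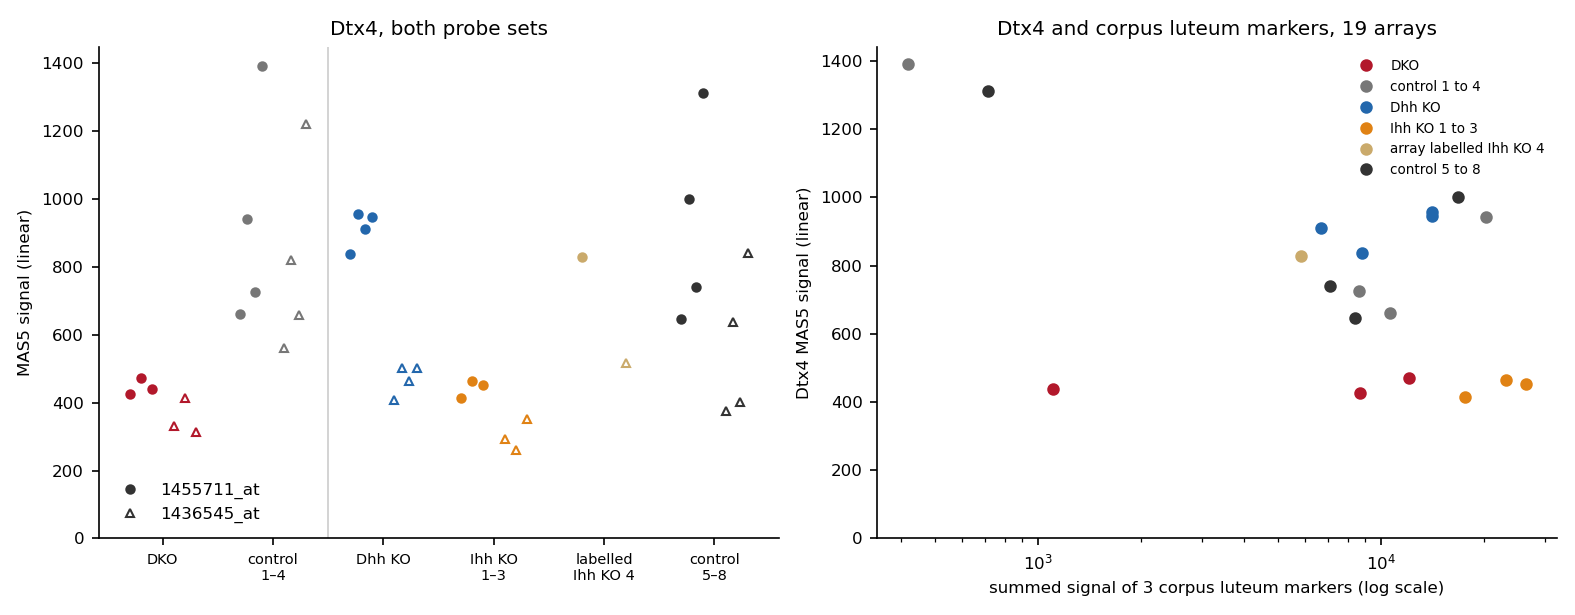
Left, linear MAS5 signal (y axis) of both Dtx4 probe sets by group (x axis), each point an array; DKO and Ihh KO 1 to 3 lie under their controls for both. Right, Dtx4 signal, more abundant probe set (y axis), against the summed signal of 3 corpus luteum markers (x axis, log scale) on 19 arrays. The 2 highest Dtx4 signals (1392 and 1313) belong to the controls with the lowest sums, control 4 and its matched array control 8. Control 2 and control 6, with the highest sums among the controls of their sets, read 942 and 999.9.

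Groups that did not overlap were counted next, as a description that the test did not use. In DKO 1 of the 9 members (Dtx4) did not overlap control 1 to 4, against 13.2% of all genes tested. In Ihh KO 1 to 3 it was 2 of 9 (Dtx4 and Heyl) against 12.7%, and in Dhh KO 0 of 9 against 5.46%. Dtx4 was chosen for this in DKO and Ihh KO 1 to 3, so nothing is read from those counts. Testing every probe set called 0 of the 15 probe sets of the other 8 members in any of the 3 mutants, against 2.32% of 23341 probe sets in DKO, 0.381% in Ihh KO 1 to 3 and 0.00428% in Dhh KO.

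The median log2 difference of the 9 members was -0.000939 in DKO, -0.26 in Ihh KO 1 to 3 and 0.02 in Dhh KO, beside medians over all genes of 0.02, -0.03 and -0.03. Of the 9 members, 7 were lower in Ihh KO 1 to 3, with 0 of the 8 apart from Dtx4 past the threshold. Centring each array on its median moved the median of all genes in Ihh KO 1 to 3 to 0.17, and on that scale Notch2 and Hey2 turned to 0.10 and 0.03, both still under that median. Jag1, Jag2, Hey1, Heyl and Dtx4 remained lower there, Dtx4 at -0.80. The same centring turned the split of called genes in Ihh KO 1 to 3 to 25 higher and 13 lower, and quantile normalization gave 13 and 35, beside 8 and 40 on the deposited scale.

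**Figure D3:**
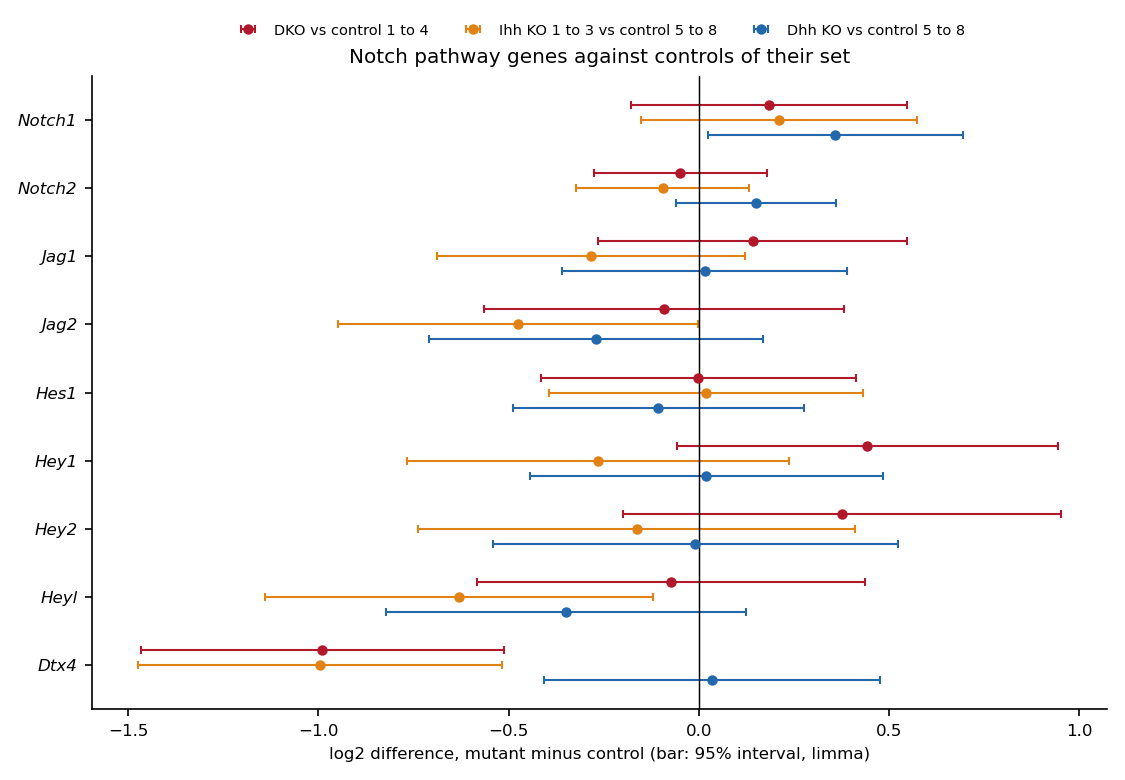
Log2 difference of each Notch pathway gene (x axis), mutant minus controls of its set, with 95% intervals from the limma fit over all genes; colours mark DKO, Ihh KO 1 to 3 and Dhh KO. Dtx4 lies at -0.99 in DKO, -0.996 in Ihh KO 1 to 3 and 0.03 in Dhh KO. It was chosen for the first 2 of these values, so its intervals there are not a test.

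Differences between the mutants' effects were tested for the 8 members other than Dtx4, and 0 were called (at an unadjusted p under 0.05, Notch2 alone, between Ihh KO 1 to 3 and Dhh KO). For Ihh KO 1 to 3 minus Dhh KO, which share a set, 0.21% of all genes were called, and Notch2 came nearest at -0.25 (SE 0.11, limma adjusted p = 0.293). For the DKO effect minus the Ihh KO 1 to 3 effect, 0.275% of all genes were called, and Hey1 stood at 0.71 (SE 0.34, adjusted p = 0.287). For the DKO effect minus the Dhh KO effect, 0.776% were called, and Notch2 stood at -0.20 (SE 0.15, adjusted p = 0.527). These contrasts reuse arrays, since Ihh KO 1 to 3 and Dhh KO have the same controls. With a correlation shared by matched controls (0.648, a fit added after seeing the data), 601 genes were called for DKO minus Ihh KO 1 to 3 and 690.0 for DKO minus Dhh KO, beside 34 and 96 without it. The 8 members stayed uncalled, with Hey1 nearest in the first (adjusted p = 0.125).

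Hes1, Hey2 and Heyl differed between the control groups of the hybridization sets. Hes1 averaged 99.8 ± 13.3 on control 5 to 8 and 198 ± 41.9 on control 1 to 4 (SD, n = 4 each). The log2 difference was -0.93 with an SE of 0.18 (limma, adjusted p = 0.00117). Hey2 averaged 2067 ± 680.3 on control 5 to 8 and 1189.7 ± 381 on control 1 to 4 (0.79, adjusted p = 0.0267). Heyl averaged 1756 ± 306 on control 5 to 8 and 1100.4 ± 269.9 on control 1 to 4 (0.69, adjusted p = 0.0289). These 3 of 9 members were called, against 28.6% of all genes. With the correlation shared by matched controls, Jag2 was called too (0.52, SE 0.12, adjusted p = 0.00158), making 4 of 9 against 54.5% of all genes. Jag1 stood at -0.19 in that fit (adjusted p = 0.0916). Dtx4 averaged 925 ± 299 on control 5 to 8 and 930.0 ± 331 on control 1 to 4, a log2 difference of -0.000695 (adjusted p = 0.998) by its more abundant probe set. Both control groups were baselines in the choice of Dtx4, so its values between them are a description. It stands in the counts of 9 members as not called.

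Probe sets of a gene disagreed between the control sets. The weaker Dtx4 probe set averaged 564 ± 220 on control 5 to 8 and 816 ± 291 on control 1 to 4. Its log2 difference was -0.54 (SE 0.24, limma adjusted p = 0.0999 with every probe set tested). With the correlation shared by matched controls it was called (adjusted p = 0.00133). These Dtx4 values are a description too, since both control groups were part of its choice. The weaker Notch2 probe set was higher in control 5 to 8 by 0.81 (SE 0.18, adjusted p = 0.00286 with every probe set tested), while the stronger stood at -0.14. For Jag2 the weaker stood at -1.47 (adjusted p = 0.0214) and the stronger at 0.52 (adjusted p = 0.0654). One Jag1 probe set was higher by 0.47 (adjusted p = 0.0258), beside -0.19 for the most abundant. The weaker Heyl probe sets stood at -0.16 and -0.24, beside 0.69 for the strongest. Over all probe sets, 29.3% were called between the control sets.

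The wider pathway was read from a list of 61 further genes in 7 roles, of which 48 were tested, 9 lay under the filter and 4 had no probe set of their own. None of the 48 was called in DKO, in Ihh KO 1 to 3 or in Dhh KO by limma, and 7, 4 and 7 had an unadjusted p under 0.05. Over all 12379 genes tested, 3.13%, 0.388% and 0.00808% were called, and 2018, 1980 and 1273 had such a p. The median log2 differences of the 48 genes were 0.04, -0.03 and -0.13, beside 0.02, -0.03 and -0.03 over all genes. By role, 5 of 8 proteases were lower in DKO, 5 of 8 in Ihh KO 1 to 3 and 7 of 8 in Dhh KO, with medians of -0.06, -0.04 and -0.16. Of 11 genes of the nuclear complex 8 were higher in DKO (median 0.12), 6 in Ihh KO 1 to 3 (0.03) and 6 in Dhh KO (0.01). Of 12 trafficking genes and ubiquitin ligases 8 were higher in DKO (0.12), 4 in Ihh KO 1 to 3 (-0.13) and 5 in Dhh KO (-0.12). In DKO 3 of the 48 were higher without overlap (Lfng, Itch and Mib2) and 3 lower (Pofut1, Psen2 and Mib1). Ihh KO 1 to 3 had 1 higher (Furin) and 5 lower (Dlk2, Adam17, Psen2, Cir1 and Dtx2), and in Dhh KO 1 higher (Myc) and 2 lower (Adam10 and Numbl). Of these, Lfng, Itch, Mib1, Mib2, Furin and Myc are named after their values were seen. Over all genes tested, 13.2% did not overlap in DKO, 12.7% in Ihh KO 1 to 3 and 5.46% in Dhh KO, in either direction. Nothing is therefore read from these counts of the wider list.

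In DKO the smallest p-values of the list belonged to Psen2, a catalytic subunit of the gamma-secretase that releases the Notch intracellular part, and Dtx2, a relative of Dtx4. Psen2 averaged 410.1 ± 96.6 on DKO and 584 ± 79.8 on control 1 to 4 (log2 difference -0.52, SE 0.16, limma adjusted p = 0.0857). Dtx2 averaged 985 ± 149.9 on DKO and 752 ± 128 on control 1 to 4 (0.39, adjusted p = 0.164), a sign opposite to that of Dtx4. The coactivator Maml2 stood at 0.46 (adjusted p = 0.187) and Pofut1, which adds fucose to Notch receptors, at -0.33 (adjusted p = 0.212). Psen2 stood at -0.32 in Ihh KO 1 to 3 (adjusted p = 0.322).

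The ligand-like membrane protein Dlk2 had the smallest p of the list in Ihh KO 1 to 3. It averaged 49.8 ± 25.2 on Ihh KO 1 to 3 and 224 ± 104 on control 5 to 8 (log2 difference -2.002, SE 0.47, limma adjusted p = 0.0701). Dhh KO, against the same controls, was lower for Dlk2 too, at 118 ± 80.6 (-0.96, adjusted p = 0.473). Ihh KO 1 to 3 minus Dhh KO stood at -1.04 and was not called (adjusted p = 0.305). In DKO Dlk2 stood at 0.55 (adjusted p = 0.623), where control 1 to 4 averaged 83.2 ± 13.8. Next in Ihh KO 1 to 3 were the RBPJ corepressor Cir1 (-0.46, adjusted p = 0.106), the acetyltransferase Kat2a (-0.79, adjusted p = 0.124) and the sheddase Adam17 (-0.45, adjusted p = 0.219). In Dhh KO the kinase Aak1 stood at 0.25 (adjusted p = 0.299), the Numb-like adaptor Numbl at -0.68 (adjusted p = 0.373), the sheddase Adam10 at -0.26 (adjusted p = 0.374) and Hes6 at -0.41 (adjusted p = 0.391). All of these missed the threshold, which does not show that they were alike in mutants and controls.

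**Figure D4:**
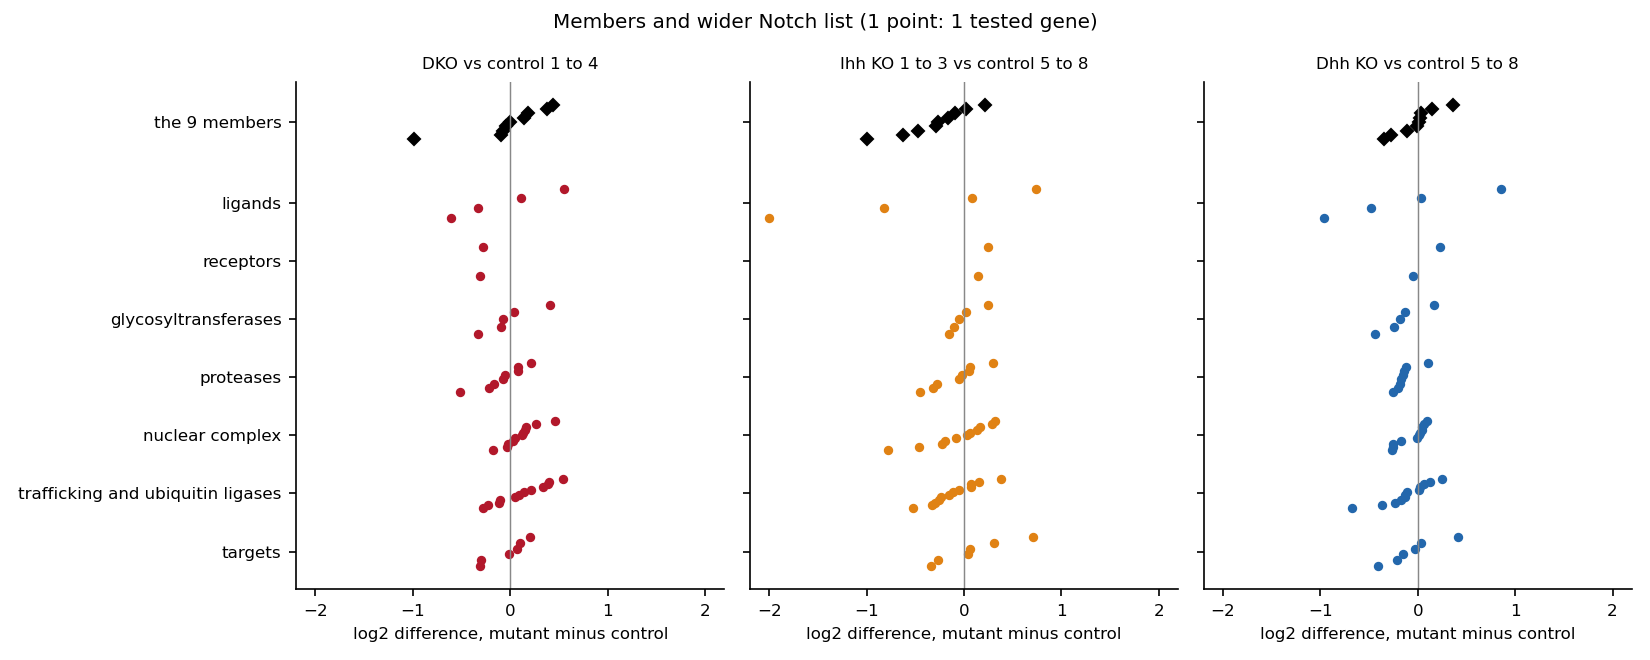
Log2 difference, mutant minus controls of the set (x axis), of the 9 members (diamonds) and of the 48 tested genes of the wider Notch list by role (y axis), 1 point per gene. The lowest point is Dlk2 at -2.002 in Ihh KO 1 to 3, and no gene of the wider list was called in any panel.

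Genes whose pattern was most like that of Dtx4 were ranked by Pearson's r of log2 levels over the 19 arrays, each array taken relative to the mean of its controls. They were Casq2, a calcium-binding protein of muscle (r = 0.891), the laminin chain Lama2 (0.887), Hhip, a Hedgehog target that restrains the ligands (0.885), Ihh itself (0.858) and the BMP type I receptor Acvr1 (0.844). Lama2 averaged 370.4 on DKO against 863 on control 1 to 4, and 454 on Ihh KO 1 to 3 and 801 on Dhh KO against 749.9 on control 5 to 8. The points share matched controls and group differences, so r is a description. They also hold DKO and Ihh KO 1 to 3, on which Dtx4 was chosen for its low signal. Genes low in those groups, such as the deleted Ihh, therefore rank high by that choice. Among the members, r with Dtx4 lay between -0.17 (Notch1) and 0.44 (Notch2).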

How the data were processed

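The authors deposited 1 table of linear intensity values per probe set and array, called MAS5 signals per the submitters' processing notes (version not given in the sources used here), after amplification of total RNA with the WT-Ovation Pico system, per the labels' protocols. The mean after trimming 2% of probe sets at each end was about 500 on every array (500.002). No second normalization was applied. Values were taken as log2(signal + 7.02), the 10th percentile of all signals, so differences of dim genes are understated. The filter dropped probe sets whose mean log2 level lay below the 40th percentile of these means, 6.26, equal to a signal of 69.4. Where several probe sets named one gene alone, the one of highest mean stood for it. Of 34945 single-gene probe sets (932 others name several genes), 34741 matched RefSeq's gene table by Entrez identifier, and 0 symbols changed.

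Groups were compared in R 4.3.3 with limma 3.58.1 (lmFit, eBayes with intensity trend, two-sided) in a model of 6 group means over 19 arrays (13 residual degrees of freedom), with Benjamini-Hochberg adjustment over all genes tested. The set rule, the members and the lists were chosen with earlier results of these data known. All 9 members are named. From the wider list those past the threshold and up to 4 with the smallest p per comparison are named, with 5 genes most like Dtx4 by Pearson's r. Non-overlapping genes outside that rule are marked. The comparisons of mutants with their controls were run on simulated data drawn as independent arrays, without the correlation of matched controls. The comparisons between sets were not checked in this way. Figures used Python 3.11.15 and matplotlib 3.10.9. Alternatives were other scalings, pseudocounts, filters, probe set rules, array weights, models of the sets and controls, the replicate number as a block, and each array left out. A correlation shared by controls matched across sets, for comparisons between sets, was added after seeing the data. DKO and control arrays of the same number were checked for pairing (r of 0.158, 0.274 and 0.0743), and the numbers were not taken to pair them.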

Additional observations from a re-analysis of the deposited data

Results flagged for a closer look

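Heyl on control 8 stood apart from control 5 to 7. Its signal there was 2211, and on the log2 scale the gap to the nearest of the others made up 0.854 of the range of the 4 arrays, above Dixon's 95% critical value for that number of arrays. This was the only flag among 27 groups of 4 arrays checked (the 9 members in Dhh KO and in each set of controls), and chance flags about 1 group in 20.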

How the results depend on the processing

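Of 561 values of members under the alternatives, 559 showed no reversal and, where a test was made, kept their side of the threshold. Dtx4 in DKO and Ihh KO 1 to 3 was not held to the threshold. Its values there kept their sign and moved by less than the SD of the controls. Of the 8 members other than Dtx4, 0 values were called. Among the 559, 43 changed sign where the reported difference was not called and smaller than its standard error. The 2 reversals, neither called, were Hey2 in DKO and Jag2 in Ihh KO 1 to 3. Hey2 stood at -0.0174 against all 8 controls with no term for the set, which takes in the gap between the sets. Jag2 stood at 0.0300 with the mean of probe sets. Dtx4, as a description, ran from -1.07 to -0.78 in DKO and from -1.01 to -0.77 in Ihh KO over the settings, and from -1.13 to -0.78 and -1.15 to -0.81 with an array left out.

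Counts of called genes depended more on the settings. In DKO (388) they were 243 with median centring, 733 with array weights, 79 with only the arrays of the set, 625 against all 8 controls, and 174 (without DKO 3) to 543 (without control 4) with an array left out; control 3 and DKO 2 also moved the count by over 1.5 times (218 and 253). In Ihh KO 1 to 3 (48) they were 25 with the filter at the 60th percentile, 83 with the mean of probe sets, 89 with every probe set, 1187 with array weights, 19 with the set only, 151 against all 8 controls, 2 with the array labelled Ihh KO 4, and 9 (without Ihh KO 2) to 131 (without control 8) with an array left out; without control 5, control 7 or Ihh KO 3 they were 21, 17 and 78. In Dhh KO (1) they were 0 with the 60th percentile filter, 2 with the mean of probe sets, with array weights or without the trend, 4 against all 8 controls, and 1 to 6 (without control 8) with an array left out, 2 of them without Dhh KO 3. Between sets, the correlation shared by matched controls gave 601 calls for DKO minus Ihh KO 1 to 3 (34 without it), 690.0 for DKO minus Dhh KO (96) and 6746 between the control groups (3540.0). The cause of these shifts was not tested, apart from the fewer arrays or genes that the set-only, left-out and filter settings hold by construction. The replicate block in DKO gave 316 calls, and Dtx4 stood at -0.78; DKO 3 deviated most like control 4 (r = 0.213), so the number is a hint at most. Arrays give no counts, and dim probe sets, such as the weaker Jag2 one, limit what can be seen.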

Other observations

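The array labelled Ihh KO 4, kept out of the comparisons, gave 342 for Notch1, 4662 for Notch2, 1142 for Jag1, 202 for Jag2, 93.5 for Hes1, 709 for Hey1, 1241 for Hey2, 1137 for Heyl and 829 for Dtx4. Notch2 there was above, and Jag2, Hey2 and Heyl below, all of control 5 to 8, and the other 5 members lay within them. Its signals for the Hedgehog target genes were 105 for Hhip and 4292 for Ptch1, against 192 to 281 and 4236 to 5104 on control 5 to 8.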
